A study of Mus musculus with 29 samples.

Results

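The Iroquois homeobox family comprises 6 genes in the mouse, *Irx1* to *Irx6*, and all 6 were found by symbol among the 24062 genes of the expression table. Iroquois proteins are transcription factors of the TALE homeodomain superclass, in which a short loop is inserted into the homeodomain, and they pattern territories and specify cell types in many tissues. In the retina, *Irx5* and *Irx6* are known for their roles in the maturation of subsets of OFF cone bipolar cells, the interneurons that signal light decrements. The genes lie in a pair of clusters on the GRCm38 assembly. *Irx3* (chr8:91798511-91801654, minus strand), *Irx5* (chr8:92357796-92361456, plus strand) and *Irx6* (chr8:92674289-92680956, plus strand) form one, with 556.1 kb between the starts of *Irx3* and *Irx5* and 316.5 kb between those of *Irx5* and *Irx6*. *Irx1* (chr13:71958232-71963723, minus strand), *Irx2* (chr13:72624430-72634196, plus strand) and *Irx4* (chr13:73259589-73269622, plus strand) form the other, with 665.1 kb and 631.7 kb between neighbouring starts.

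Expression was measured by RNA-seq in 15 libraries, 3 from each of 5 retinal populations purified by fluorescence-activated sorting. All bipolar cells (pan-BC) came from Otx2-GFP+/- mice, which carry GFP at the *Otx2* locus, at postnatal days 44 to 47. ON bipolar cells (ON-BC) and OFF bipolar cells (OFF-BC) came from Otx2-GFP+/-; Grm6-YFP+/+ mice at days 42 to 48, in which a *Grm6* promoter drives YFP in ON cells, and OFF-BC were sorted through a further round. All bipolar mice thus had GFP at 1 *Otx2* allele. Rods came from Nrl-eGFP mice, and photoreceptors of Nrl-eGFP;NrlKO mice, which lack *Nrl* and stand in for blue cones, are called blue cones here; both were taken at day 56 and re-analysed from previous work of the laboratory. Cell class, study and age therefore cannot be told apart in any comparison of bipolar cells with photoreceptors. Accessible chromatin was measured by ATAC-seq in 12 libraries, 2 from each of these populations and 2 from green cones of Opn1mw-GFP mice (day 56), and the labels give Otx2-GFP+/-; Grm6-YFP+/+ for all bipolar ATAC-seq libraries, taken at days 43 and 44 for pan-BC and at days 42 and 46 for ON-BC and OFF-BC.

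Counted reads ranged from 12329548 to 26266746 per RNA-seq library and from 4176776 to 12345845 per ATAC-seq library. *Nrl* had 11480 to 16600 normalized counts in rods and 485.5 to 764.1 in the NrlKO libraries. The 12 bipolar markers (*Otx2*, *Trpm1*, *Grm6* and others) summed to 140400 to 277900 normalized counts in the bipolar libraries, 8372 to 9471 in rods and 33100 to 38400 in blue cones, and none of them was at 0 throughout the libraries of any population. OFF-BC replicate 3 stood apart by its photoreceptor genes, with 104700 summed normalized counts of 7 cone markers against 29980 and 34740 in the other OFF-BC libraries. The same sum was 5113 to 5910 in ON-BC and 44700 to 70940 in pan-BC. OFF-BC replicate 3 also had more of the ON-cell genes *Grm6* (592.6 against 145.3 and 64.88) and *Isl1* (1329 against 343.1 and 162.2). Markers of Müller glia summed to 2835 to 3857 in OFF-BC and 1476 to 1716 in ON-BC, and those of amacrine cells to 735.4 to 939.5 and 226.8 to 354.7. Of the Müller glia markers, *Sox9* alone had 1235 to 1490 in OFF-BC and 14.7 to 35.08 in ON-BC. Blue cones had 2117 to 3484 for Müller glia and 1357 to 1594 for amacrine cells, and rods 1395 to 2245 and 2068 to 2427. Of 6 endothelial markers, *Esam* had 12160 to 14200 in OFF-BC and 42.07 to 69.13 in ON-BC, whereas the defining markers *Cdh5* and *Tie1* were at 0 in every OFF-BC library and *Cldn5* had 0, 0 and 4.414. Their part in the Iroquois values was not tested, and in bulk libraries fewer expressing cells and less RNA per cell cannot be told apart.

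*Irx6* was by far the most abundant member, and its transcript was concentrated in OFF-BC. Its normalized count was 6414, 7249 and 6644 in the 3 OFF-BC libraries. It was 1075, 1253 and 923.8 in pan-BC and 113.5, 166.6 and 122.1 in ON-BC. The 3 bipolar populations did not overlap. Pan-BC holds ON and OFF cells together, so a place between them, for *Irx6* as for *Irx5* below, is not a separate result. In photoreceptors the *Irx6* count was 43.62, 79.68 and 142.1 in blue cones and 5.821, 9.219 and 21.61 in rods. The highest blue cone library thus lay above 2 of the 3 ON-BC libraries.

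The ON-BC mean of *Irx6* was 50.5-fold below that of OFF-BC, a log2 fold change of -5.67 (SE 0.38, limma adjusted p = 1.76e-07). Fold changes are given on the log2(normalized count + 1) scale, first population minus second, and were tested against a log2 fold change of 1. *Irx6* was higher in OFF-BC than in pan-BC by 2.65 (SE 0.38, limma adjusted p = 0.0111), and lower in ON-BC than in pan-BC (-3.02, SE 0.38, limma adjusted p = 0.00544). The OFF-BC against pan-BC call was lost without OFF-BC replicate 2 (2.60, limma adjusted p = 0.0512) or without pan-BC replicate 3 (2.54, 0.0538).

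Against photoreceptors, pan-BC had more *Irx6* than rods (log2 fold change 6.53, SE 0.38, limma adjusted p = 7.69e-10) and than blue cones (3.75, SE 0.38, limma adjusted p = 7.24e-06). Rods in turn had less than blue cones (-2.78, SE 0.38, limma adjusted p = 0.00125). ON-BC and blue cones, neighbours in the order of levels, overlapped and did not differ beyond the tested threshold (0.73, SE 0.38, limma adjusted p = 1). The order of mean levels was thus OFF-BC (6769 ± 431, SD, n = 3), pan-BC (1084 ± 165), ON-BC (134.1 ± 28.5), blue cones (88.47 ± 49.8) and rods (12.22 ± 8.31).

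Low *Irx6* values in photoreceptors were set beside those of the 12 bipolar markers. Rod levels of *Irx6* were 0.537%, 0.85% and 1.99% of the pan-BC mean, and the library with the most was also the highest for 9 of the 12 markers, among them *Isl1* (0.254%, 0.273% and 0.694%), a LIM homeobox gene of ON cells, and *Grm6* (0.491%, 0.632% and 1.4%), the glutamate receptor gene of ON cells. In blue cones *Irx6* stood at 4.02%, 7.35% and 13.1% of the pan-BC mean. *Isl1* stood there at 0.367%, 0.422% and 1.32% and *Grm6* at 0.844%, 1.6% and 2.15%, and 8 of the 12 markers were highest in the blue cone library with the most *Irx6*. *Prkca* (3.55%, 3.3% and 2.09%), *Vsx1*, *Cabp5* and *Otx2* were not. The OFF-cell gene *Grik1* stood at 4.88%, 5.34% and 6.1% in blue cones, above *Irx6* in the first library and below it in the others, while *Cabp5* and *Otx2* lay between 65.7% and 77.1%. In ON-BC, *Irx6* was at 1.68%, 2.46% and 1.8% of the OFF-BC mean, beside 0.887%, 0.889% and 0.098% for the OFF marker *Tacr3* and 1.18%, 1.46% and 0.984% for *Grik1*. The part of such reads in the low *Irx6* values was not tested.

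**Figure D1:**
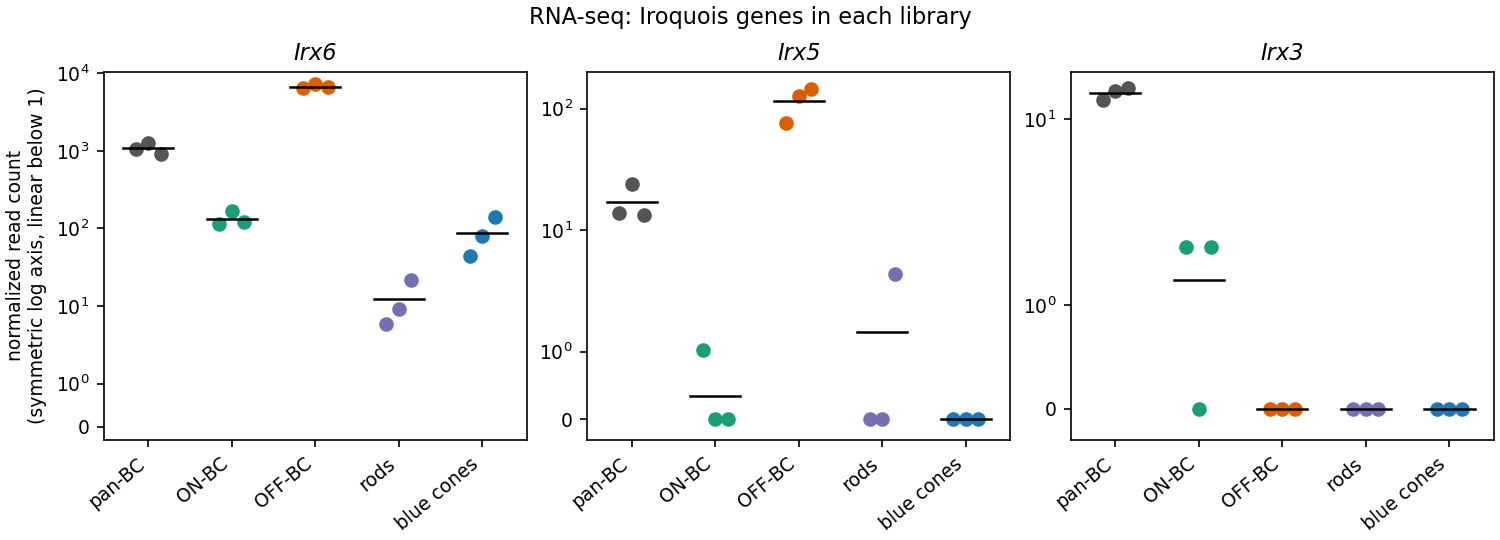
Normalized read counts of *Irx6*, *Irx5* and *Irx3* in each RNA-seq library (points) by population, on a symmetric log axis that is linear below 1, with the mean of 3 libraries as a line. *Irx6* and *Irx5* are highest in the 3 OFF-BC libraries (6414 to 7249 and 76.0 to 145.7), whereas *Irx3* is highest in the 3 pan-BC libraries (12.76 to 14.68).

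*Irx5* followed the same ranking among bipolar populations at a lower level. Its normalized count was 76.0, 126.1 and 145.7 in OFF-BC, 13.83, 24.21 and 13.46 in pan-BC, and 1.032, 0 and 0 in ON-BC. The OFF-BC libraries lay above every other library, and the pan-BC libraries lay above all ON-BC, rod and blue cone libraries. Blue cones had 0 in all 3 libraries and rods 0, 0 and 4.323, the single rod value coming from the library with the most *Irx6* and *Isl1*. Per kb of exonic sequence, the OFF-BC level of *Irx5* was 48.2 ± 15 (SD, n = 3), compared with 2010 ± 128 for *Irx6*.

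ON-BC held a single *Irx5* read against 305 in OFF-BC. The ratio of reads scaled by size factors was 343-fold with an exact 95% counting interval of 61.2 to 13600, which covers counting error only, and the fitted log2 fold change was -6.48 (SE 0.60, limma adjusted p = 4.08e-06). Pan-BC had more *Irx5* than rods (log2 fold change 3.33, SE 0.60, limma adjusted p = 0.0019) and than blue cones (4.13, SE 0.60, limma adjusted p = 0.000193), where it was at least 23.3-fold higher if 3 reads are allowed over the blue cone libraries. The lower level in ON-BC than in pan-BC was called (-3.79, SE 0.60, limma adjusted p = 0.0154), but not without ON-BC replicate 2 (-3.62, limma adjusted p = 0.0623), without ON-BC replicate 3 (-3.62, 0.0723), or without pan-BC replicate 2 (-3.53, 0.103).

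OFF-BC and pan-BC did not overlap in *Irx5*, yet their difference of 2.68 (SE 0.60, limma adjusted p = 0.147) did not pass the test. It did pass with edgeR or DESeq2 on recovered reads and with 4 in place of 1 added before the logarithm. The lowest 3 populations, rods, ON-BC and blue cones, overlapped, and no pair of them passed the test for *Irx5*.

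*Irx3* showed a different distribution. It had 12.76, 14.12 and 14.68 normalized counts in pan-BC, 2.064, 0 and 2.052 in ON-BC, and 0 in all OFF-BC, rod and blue cone libraries. Every pan-BC library thus lay above every library of the separately sorted ON and OFF cells, at a level that rests on 38 reads in all. Allowing 3 reads over a population at 0, *Irx3* in pan-BC was at least 12.1-fold higher than in OFF-BC, 13.5-fold higher than in rods and 18.4-fold higher than in blue cones.

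*Irx3* passed the filter on low counts only through its pan-BC reads, so that its comparisons with pan-BC were conditioned on the population where it was high, and its tests are given as a description. The fitted log2 fold change was 3.89 (SE 0.52) for pan-BC against rods (limma adjusted p = 6.94e-05) and blue cones (limma adjusted p = 9.52e-05), and -3.89 for OFF-BC against pan-BC (limma adjusted p = 0.00123). With DESeq2 on recovered reads the OFF-BC against pan-BC difference was not called. ON-BC and pan-BC did not overlap but did not pass the test (-2.82, SE 0.52, limma adjusted p = 0.109), and ON-BC and OFF-BC overlapped (1.07, SE 0.52, limma adjusted p = 1). *Lrrtm1*, used as a marker of a cone bipolar type, had the same ordering of pan-BC over the sorted fractions. It had 546.7, 447.9 and 349.9 normalized counts in pan-BC, 79.45, 121.5 and 83.11 in ON-BC, and 67.06, 56.47 and 115.9 in OFF-BC. The authors use it as a marker of an ON type that they describe as likely left out of both sorted fractions. Summed markers of ganglion cells were also highest in pan-BC, with 381.9 to 408.6, against 279.6 to 336.1 in ON-BC and 62.59 to 125.8 in OFF-BC. Rod markers were too (33310 to 41850, 20200 to 25440 and 3580 to 17890). No other marker list had all pan-BC libraries above both fractions. Pan-BC mice differed from the ON-BC and OFF-BC mice in lacking the Grm6-YFP transgene. The part of any of these in the *Irx3* values was not tested.

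The 3 genes of the chromosome 13 cluster were silent at this depth. *Irx1* and *Irx4* had 0 reads in all 15 libraries, which allows up to 3 reads of the 263674097 counted. *Irx2* had 1 read, in ON-BC replicate 2. A count of 3 reads in 1 library corresponds to 2.22 to 3.67 normalized counts, so lower expression was not detectable in a library. These genes did not pass the filter on low counts, and 3 of the 6 members were tested.

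Of the 3 members tested, 2 were called between ON-BC and OFF-BC, where 6.55% of the 14024 tested genes were called, and *Irx3* was not. All 3 were called between pan-BC and rods (43.6% of tested genes) and between pan-BC and blue cones (36.3%), each higher in pan-BC, but *Irx3* had entered the test only through pan-BC. Between rods and blue cones only *Irx6* was called (15.9% of tested genes). *Irx6* and *Irx3* were called between OFF-BC and pan-BC (3.37% of tested genes) in opposite directions, and *Irx6* and *Irx5* between ON-BC and pan-BC (1.06%). The comparisons of pan-BC share its libraries. The direction of every called difference was the same with another scaling of the libraries.

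**Figure D2:**
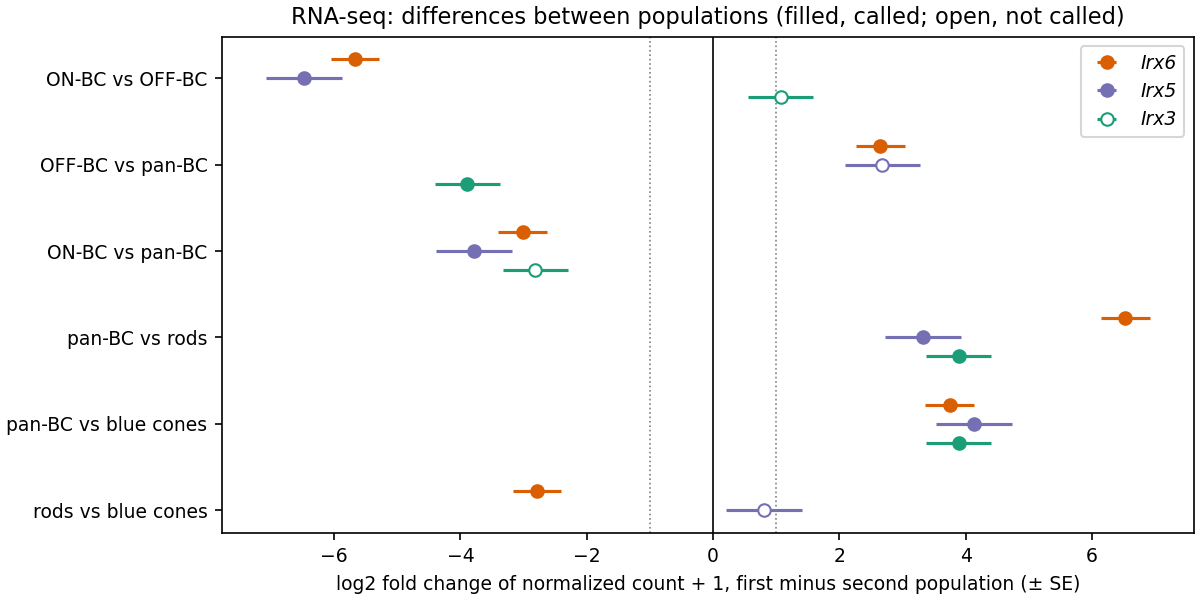
Log2 fold change (± SE, horizontal axis) of *Irx6*, *Irx5* and *Irx3* in 6 comparisons of RNA-seq populations, first minus second, with filled points where the gene was called against a log2 fold change of 1 (dotted lines) and open points where it was not. *Irx6* and *Irx5* lie together at -5.67 and -6.48 between ON-BC and OFF-BC, while *Irx3* lies on the other side of 0 (1.07, not called).

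Genes around the Iroquois clusters were examined because both clusters lie in wide intergenic regions. The table held 21 genes with a start within 500 kb of a member's start, of which 12 were tested. Between ON-BC and OFF-BC, 4 of the 12 were called, where 6.55% of all tested genes were, all lower in ON-BC, and all 4 lay next to *Irx5* and *Irx6*. The median log2 difference of the 12 was -0.42, compared with -0.02 over all tested genes.

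*Crnde*, a noncoding RNA gene that starts 1.68 kb from *Irx5*, had 120.4 ± 14.8 (SD, n = 3) normalized counts in OFF-BC, whereas the ON-BC mean was 1.337 ± 1.16 (log2 fold change -5.86, SE 0.51, limma adjusted p = 2.39e-06). Its reads may be hard to separate from those of genes on the opposite strand, since the cDNA kit did not record strand. *Mmp2*, which encodes a matrix metalloproteinase and starts 153 kb from *Irx6*, had 942.4 ± 34.3 in OFF-BC, against 11.11 ± 2.52 in ON-BC (-6.31, SE 0.18, limma adjusted p = 3.28e-12). *Lpcat2*, a lysophospholipid acyltransferase gene, had 547.8 ± 95.8 and 37.53 ± 16.2 (-3.91, SE 0.23, limma adjusted p = 1.26e-07), and *Capns2*, a calpain small subunit gene, had 13.78 ± 3.71 and 0.344 ± 0.596 (-3.52, SE 0.60, limma adjusted p = 0.00676).

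Further along chromosome 8, *Slc6a2*, the noradrenaline transporter gene, was at 0 in every ON-BC library and had 8.941, 1.201 and 8.828 normalized counts in OFF-BC. It thus ran in the same direction without overlap, but it did not pass the test at this low count (-2.58, SE 0.76, limma adjusted p = 0.298). *Fto*, whose introns hold many of the regions assigned to *Irx3*, averaged 4985 ± 167 among ON-BC and 4744 ± 770 among OFF-BC libraries (log2 fold change 0.08, SE 0.11). Unlike *Irx6*, the neighbour *Lpcat2* was higher in rods (1754 ± 136) and blue cones (3003 ± 273) than in OFF-BC by its means, and *Mmp2* in blue cones (521.0 ± 30.7) exceeded pan-BC (247.5 ± 25.4) without a call (limma adjusted p = 0.687).

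**Figure D3:**
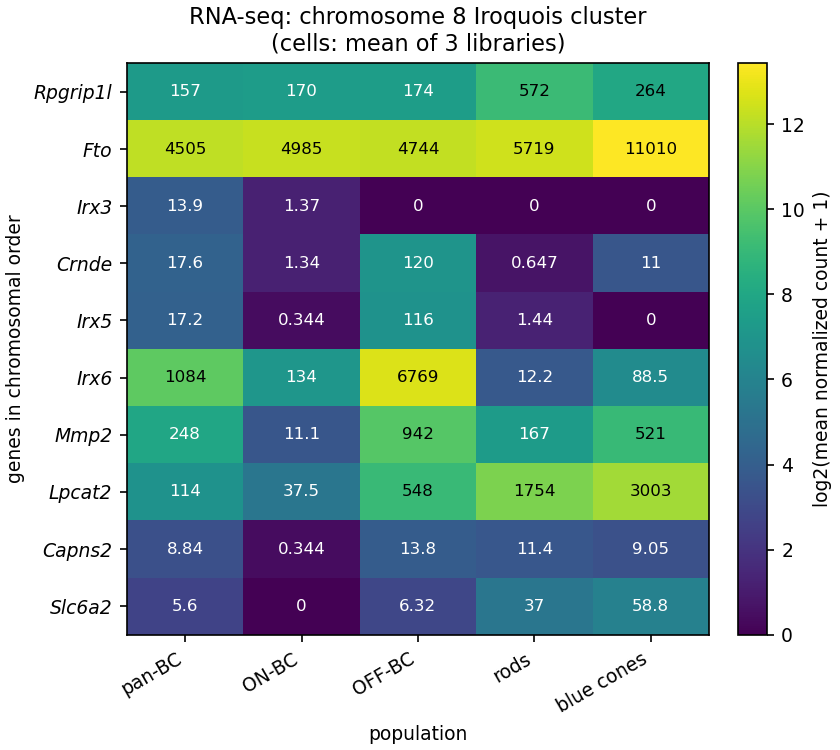
Mean normalized read counts (3 libraries each, printed in the cells, colour on a log2 scale) of genes along the chromosome 8 Iroquois cluster in their chromosomal order, by population. *Crnde*, *Irx5*, *Irx6*, *Mmp2*, *Lpcat2* and *Capns2*, which follow each other, all have higher means in OFF-BC than in ON-BC, whereas the *Fto* means are 4985 (ON-BC) and 4744 (OFF-BC).

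Other TALE homeobox genes, many of which encode cofactors of homeodomain proteins, were compared as a list of 12, of which 11 were tested. None was called between ON-BC and OFF-BC by limma, edgeR or DESeq2, and 2 had an unadjusted limma p under 0.05. The nearest to a call was *Pbx3*, with 144.0 ± 40.9 (SD, n = 3) in ON-BC, against 34.73 ± 45.7 in OFF-BC (2.97, SE 0.64, limma adjusted p = 0.0531). The OFF-BC values were 13.41, 3.604 and 87.17, the highest in replicate 3, which stood apart by its photoreceptor genes, and *Pbx3* had 1092 ± 145 in rods and 2166 ± 137 in blue cones. Without that library, left out after the data had been seen, the OFF-BC mean was 8.508. *Pbx3* was then called higher in ON-BC (4.12, SE 0.34, limma adjusted p = 6.06e-06), the only TALE gene of this list to be called. The part of photoreceptor reads in the OFF-BC values of *Pbx3* was not tested. Between pan-BC and rods 7 of the 11 were called (43.6% of all tested genes), 5 higher in pan-BC (*Meis3*, *Pbx2*, *Pbx4*, *Pknox2* and *Mkx*) and 2 lower (*Meis1* and *Pbx3*). The median over the 11 was 0.19, beside 0.21 over all tested genes. *Mkx*, the Mohawk gene and a close relative of the Iroquois genes in its homeodomain, had 420.8 ± 24.9 normalized counts in pan-BC, compared with 1.025 ± 0.0552 for rods (7.70, SE 0.47, limma adjusted p = 7.97e-10). *Meis1* ran the other way, with 385.3 ± 19.5 in pan-BC and 5391 ± 375 in rods (-3.80, SE 0.11, limma adjusted p = 3.54e-13). Against blue cones 5 of the 11 were called (36.3% of all tested genes), *Pbx4*, *Pknox2* and *Mkx* higher in pan-BC and *Meis1* and *Pbx3* lower, and between rods and blue cones 2 of the 11, *Meis3* and *Pbx4*, were lower in rods (15.9% of all tested genes were called). These shares were not tested against the background.

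A list of 6 genes that have been linked to *Irx5* or *Irx6* in bipolar cells was counted in the same way. Between ON-BC and OFF-BC, 2 of the 6 were called (6.55% of all tested genes). *Bhlhe22*, a bHLH repressor gene of OFF bipolar subtypes, was higher in OFF-BC (377.5 ± 153 against 21.3 ± 16, log2 fold change -4.25, SE 0.57, limma adjusted p = 0.000526). *Isl1* was higher in ON-BC (26260 ± 1800 against 611.3 ± 628, 5.96, SE 0.58, limma adjusted p = 8.04e-06), with 343.1, 162.2 and 1329 in the OFF-BC libraries. *Vsx1*, *Rcvrn*, *Cabp5* and *Syt2* were not called. *Vsx1*, a paired-type homeobox gene of cone bipolar cells, averaged 974.9 ± 111 in ON-BC, against 287.2 ± 97.1 in OFF-BC, without overlap (1.82, SE 0.56, limma adjusted p = 0.749). *Syt2*, a synaptotagmin gene used as a marker of a type of OFF cell, averaged 151.9 ± 59.8 in OFF-BC, against 24.28 ± 18.2 in ON-BC (-2.76, SE 0.65, limma adjusted p = 0.103). All 6 were called between pan-BC and rods (43.6% of all tested genes), 5 higher in pan-BC and *Rcvrn*, the photoreceptor calcium sensor gene, lower.

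The genes whose pattern over the 15 libraries was most like that of the abundant members were found by Pearson correlation of log2(normalized count + 1). The libraries are 5 populations of 3, so these coefficients mostly describe population means. The 5 genes nearest to *Irx6* were *Grik1* (0.99), a kainate receptor subunit gene, *Srpx2* (0.99), *Cox6b2* (0.98), *Gng2* (0.98) and *Wfdc2* (0.98). *Grik1* had means of 38800 in OFF-BC, 7079 in pan-BC, 469.4 in ON-BC, 384.9 in blue cones and 59.63 in rods, in the same order as *Irx6*. The 5 nearest to *Irx5* were *Adam33*, *Fam19a4*, *Cyp4a14*, *Sox9* and *Tbata* (0.96 to 0.97). Of these, *Adam33*, *Cyp4a14* and *Tbata* had low counts, with means of 36.32, 21.46 and 33.35 in OFF-BC and 7.847, 4.395 and 8.398 in pan-BC. They were at or near 0 in the other populations, so their coefficients rest mostly on OFF-BC reads. *Sox9* is also on the list of Müller glia markers. *Irx5* and *Irx6* correlated at 0.88, which placed *Irx6* at rank 106 for *Irx5* and *Irx5* at rank 480 for *Irx6*.

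Chromatin accessibility gave a second readout at the same genes. A region is a 200 bp window around a peak summit, and it was assigned to a member when the nearest start of a protein-coding RefSeq transcript was that member's. Of 110715 regions, 87 were assigned to the family and 84 of these were tested, with 24 assigned to *Irx3*, 21 to *Irx1*, 16 to *Irx5*, 10 to *Irx6*, 9 to *Irx2* and 7 to *Irx4*. Most were distal, with a median distance of 154 kb and 58 of them over 100 kb away. By RefSeq, 54 lay between genes, 25 in introns, 12 of these in *Fto*, and 8 overlapped an exon. Assignment by distance does not show which gene a region acts on.

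The silent chromosome 13 genes were surrounded by accessible chromatin in bipolar cells, and this was nearly absent in rods. Summed over the 37 regions of that cluster, normalized counts were 1538 and 1760 in pan-BC, 1765 and 1982 in ON-BC, and 1726 and 1210 in OFF-BC. Blue cones had 736.9 and 711.8, green cones 756.9 and 909.7, and rods 25.7 and 23.72. The rod libraries, with 9665199 and 10890548 counted reads, lay far below all others. The median over these regions was 0 in both rod libraries and 24.8 and 30.2 in pan-BC. Rods were also lower over all regions, with medians of 7.79 and 8.81, against 29.6 and 31.9 in pan-BC. Over the 50 chromosome 8 regions, rods had 819.3 and 693.9, against 1396 and 1524 in pan-BC and 1860 and 1939 in blue cones.

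**Figure D4:**
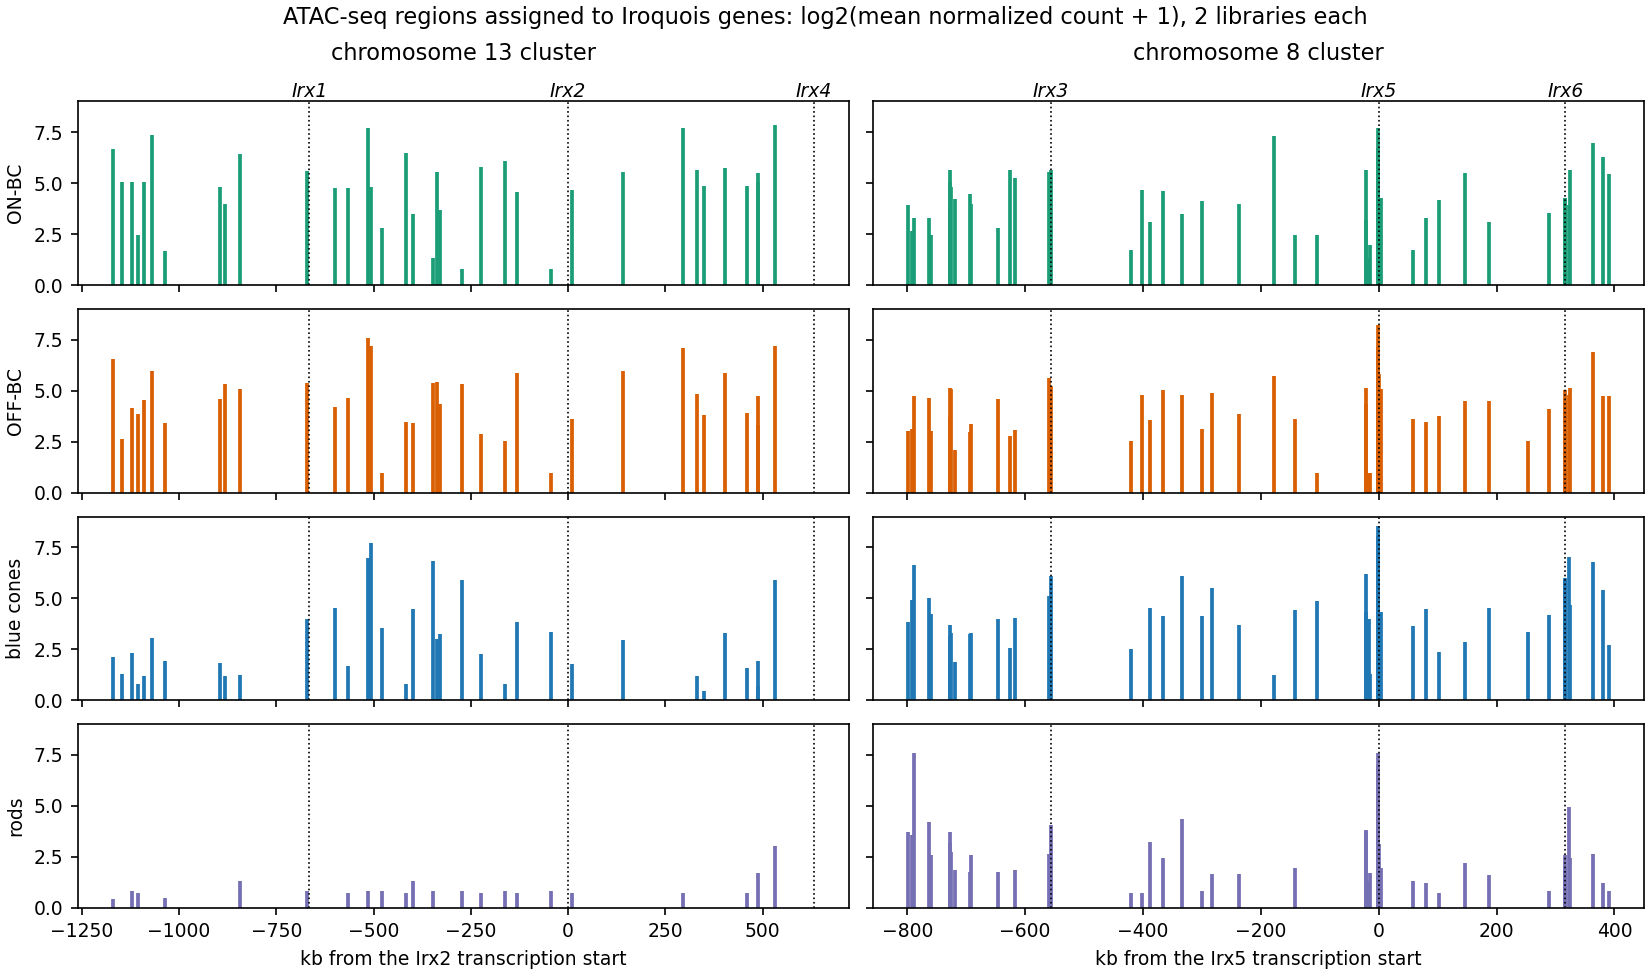
Mean normalized ATAC-seq count of each assigned region (bar height, log2 of the mean of 2 libraries plus 1) against its position in kb from the start of *Irx2* (left, chromosome 13 cluster) or *Irx5* (right, chromosome 8 cluster), for ON-BC, OFF-BC, blue cones and rods. Dotted lines mark the starts of the members, and the rod panel of the chromosome 13 cluster is nearly empty while the bipolar panels are filled.

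Between pan-BC and rods, 51 of the 84 tested regions were called higher in pan-BC, where 40.3% of all 108448 tested regions were called in that direction, and 1 was called lower (11.2% of all regions). In the chromosome 13 cluster 31 of 34 were called, all higher in pan-BC, with a median log2 difference of 4.65. Neither rod library had a peak assigned to that cluster, so its regions entered through other populations. Their direction against rods was thus conditioned, and these calls are given as a description. In the chromosome 8 cluster 21 of 50 were called, 20 of them higher, with a median of 2.11, and the median over all tested regions was 1.16. Rod libraries had 9 and 6 peaks assigned to the family, all in this cluster. Many of its regions thus also entered through other populations. With trimmed-mean (TMM) scaling the median over all regions moved to 0.96, and 49 regions were called higher and 1 lower.

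The regions with the largest differences from rods were a site 405 kb downstream of *Irx1*, one 151 kb upstream of *Irx1*, and one 296 kb downstream of *Irx2*. The first (chr13:71558550-71558750), in an intron of the noncoding *1700112M02Rik*, had 137 and 119 normalized counts in pan-BC, with both rod libraries at 0 (log2 fold change 7.01, SE 0.48, limma adjusted p = 1.39e-08), at least 116-fold more if 3 reads are allowed over the rods. The second (chr13:72114889-72115089) had 167 and 230 in pan-BC, 105 and 140 in blue cones, and 1.56 and 0 in rods (6.95, SE 0.36, limma adjusted p = 8.43e-10). The third (chr13:72924753-72924953) had 174 and 193 in pan-BC, 0 and 1.36 in rods and 0 in both blue cone libraries (6.91, SE 0.63, limma adjusted p = 3.54e-07). The sole region called higher in rods was 232 kb downstream of *Irx3* in an *Fto* intron (chr8:91569271-91569471), where rods had 216 and 169, blue cones 85.5 and 108, and pan-BC 10.4 and 9.12 (-4.16, SE 0.32, limma adjusted p = 1.74e-07).

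Against blue cones, 23 of the 84 regions were called higher in pan-BC (28.8% of all tested regions) and 6 lower (7.13%). By cluster, 18 regions were higher and 2 lower of 34 on chromosome 13, and 5 higher and 4 lower of 50 on chromosome 8. The medians were 2.66 and -0.16, beside 0.54 over all tested regions, which became 0.26 with TMM scaling. Blue cone libraries had 5 and 6 peaks assigned to *Irx1*, 2 and 1 to *Irx2* and 1 and 1 to *Irx4*. Pan-BC libraries had 17 and 20, 6 and 12, and 4 and 8. Many chromosome 13 regions thus entered through other populations. Their direction against blue cones was partly conditioned, and these calls are given as a description. The region 296 kb downstream of *Irx2* was at least 133-fold higher in pan-BC (7.53, SE 0.63, limma adjusted p = 9.2e-07). A region 178 kb upstream of *Irx5* (chr8:92179370-92179570) had 117 and 109 in pan-BC against 1.3 and 1.45 in blue cones (5.59, SE 0.51, limma adjusted p = 2.72e-06) and 0 in both rod libraries, and one 249 kb upstream of *Irx1* (chr13:72212513-72212713) had 46.4 and 90.1 against 0 and 1.45 (5.39, SE 0.72, limma adjusted p = 7.78e-05).

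Between rods and blue cones, a comparison added after the data had been seen, 27 of the 84 regions were called and all 27 were lower in rods, where 8.56% of all tested regions were called in that direction. Of the 10 *Irx6* regions 7 were among them. Each rod library had 1 peak assigned to *Irx6* and each blue cone library 7, so the direction of many *Irx6* regions was also conditioned. In the chromosome 13 cluster 13 of 34 were among the 27, and their direction was conditioned in the same way. These calls are given as a description.

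Between ON-BC and OFF-BC, 6 of the 84 regions were called (7.14%), close to the 7.39% of all tested regions. Of these, 5 were higher in OFF-BC and 1 in ON-BC. The 5 comprise a region at the *Irx5* start and 4 distal regions. All 4 distal regions were also called lower in rods than in blue cones, and the *Irx5* start region was not.

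The *Irx5* start region (chr8:92357628-92357828), centred 68 bp upstream and overlapping an exon of the gene, was called in the same direction as the transcript. It had 44.5 and 67.2 normalized counts in OFF-BC, 16 and 17.7 in pan-BC, and 5.97 and 2.93 in ON-BC. OFF-BC lay above all other libraries, since green cones had 18.4 and 12.7, blue cones 10.4 and 6.5, and rods 9.35 and 6.1. ON-BC differed from OFF-BC by -3.41 on the log2 scale (SE 0.56, limma adjusted p = 0.00716), and the call was lost without OFF-BC replicate 2 (-3.12, limma adjusted p = 0.068) or without ON-BC replicate 2 (-3.0, 0.0601).

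At *Irx6* the promoter region was not called. The region 526 bp upstream (chr8:92673663-92673863) had 28.3 and 35.0 in OFF-BC, against 11.9 and 24.9 in ON-BC, without overlap but within the tested threshold (log2 fold change -0.83, SE 0.51, limma adjusted p = 1), while the mean transcript level differed 50.5-fold. It was highest in blue cones, with 67.3 and 48.4, and lower in rods, with 3.89 and 6.1 (rods against blue cones -3.30, SE 0.51, limma adjusted p = 0.00287). None of the 10 *Irx6* regions was called between ON-BC and OFF-BC by limma, edgeR or DESeq2, and 0 had an unadjusted limma p under 0.05. No region of the table lay from 1000 bp upstream to 100 bp downstream of the start of *Irx1*, *Irx2*, *Irx3* or *Irx4*. The nearest to *Irx3* was 193 bp downstream in its exon (chr8:91801361-91801561), where pan-BC had 51.2 and 48.5, OFF-BC 26.9 and 46.7, blue cones 68.6 and 67.2, and rods 20.2 and 10.8.

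The distal region 157 kb upstream of *Irx1* (chr13:72121099-72121299) reached 154 and 131 normalized counts in OFF-BC, against 28.4 and 24.9 in ON-BC (log2 fold change -2.38, SE 0.30, limma adjusted p = 0.0049). Blue cones reached 194 and 215, green cones 185 and 211, and both rod libraries were at 0. The region 317 kb upstream of *Irx1* (chr13:72280413-72280613) had 35.0 and 46.7 in OFF-BC, 0 and 2.93 in ON-BC, and a mean of 114 in blue cones (-4.39, SE 0.64, limma adjusted p = 0.00184). In each of these, OFF-BC lay between ON-BC and the cones without overlap. In RNA-seq the cone markers summed to 29980 to 104700 in OFF-BC, against 5113 to 5910 in ON-BC, and their part in these regions was not tested.

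The region 273 kb upstream of *Irx2* (chr13:72355407-72355607) repeated this order, with 43.1 and 34.1 in OFF-BC, 0 and 1.46 in ON-BC, 57.0 and 59.3 in blue cones and 1.56 and 0 in rods (-4.65, SE 0.63, limma adjusted p = 0.000931). The region 274 kb upstream of *Irx3* (chr8:92075074-92075274) had 40.4 and 16.5 in OFF-BC, 0 in both ON-BC libraries and 38.9 and 49.1 in blue cones (-4.75, SE 0.69, limma adjusted p = 0.00151), so that OFF-BC overlapped blue cones. It was at least 12-fold higher in OFF-BC than in ON-BC if 3 reads are allowed over ON-BC. Between OFF-BC and blue cones, also compared after the data had been seen, 20 of the 84 regions were called (23.8%, against 19.8% of all tested regions), and none of these 4 distal regions was among them.

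The 1 region higher in ON-BC lay 163 kb upstream of *Irx2* (chr13:72465902-72466102), where ON-BC had 55.2 and 79.1, pan-BC 52.0 and 33.6, and OFF-BC 0 and 9.73 (4.36, SE 0.97, limma adjusted p = 0.0255). Rods and cones had at most 2.31 in any library. The call rested on the low OFF-BC library and on both ON-BC libraries, since without OFF-BC replicate 1 the difference was 2.64 (limma adjusted p = 0.386), without ON-BC replicate 1 it was 4.61 (0.073) and without ON-BC replicate 2 it was 4.10 (0.146).

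**Figure D5:**
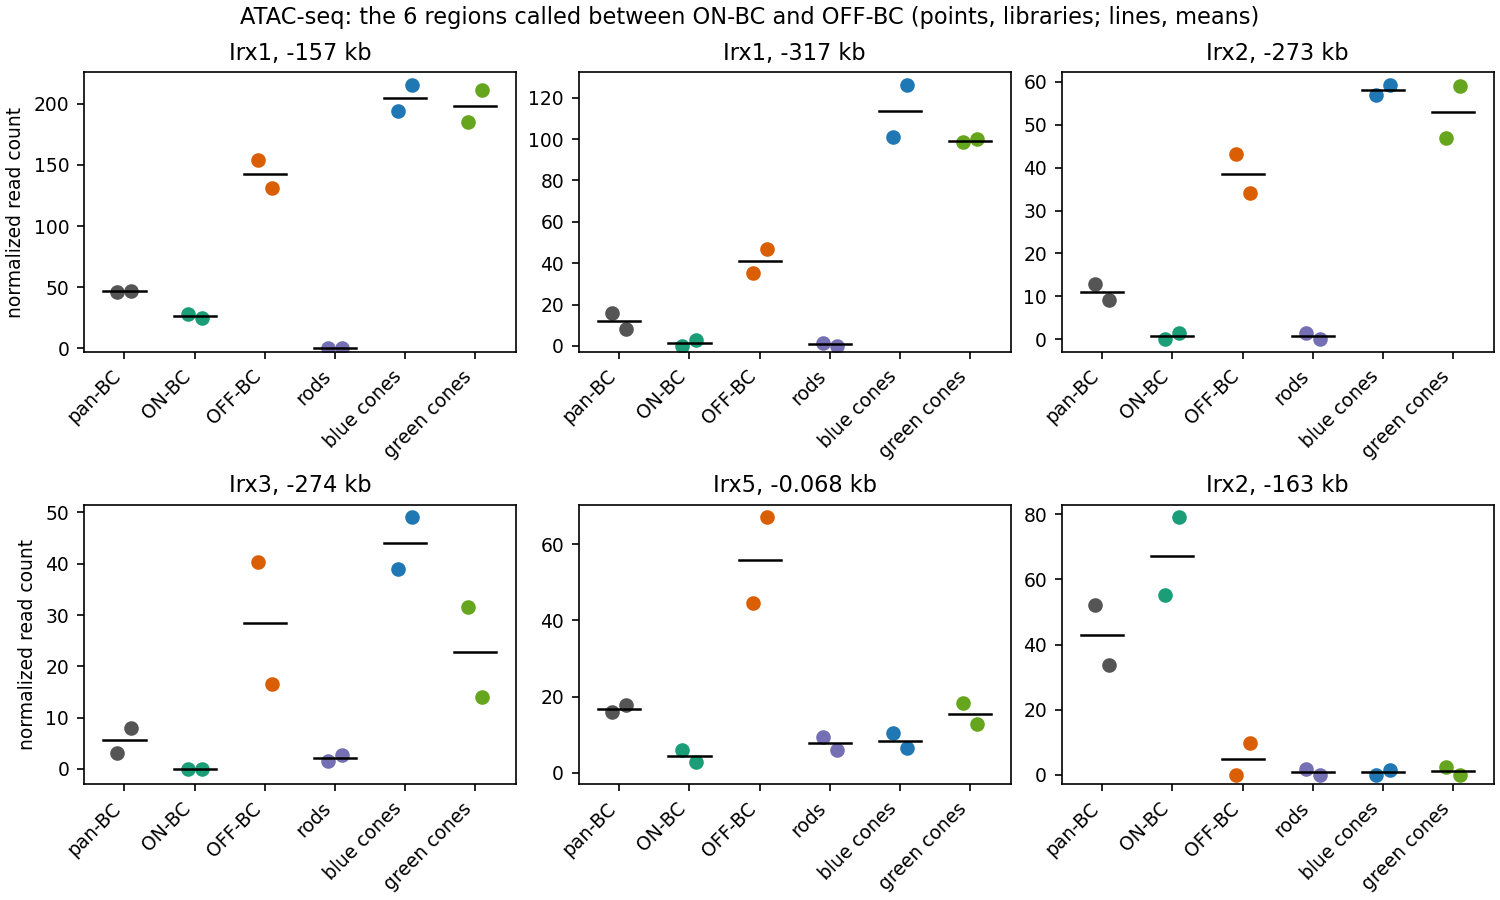
Normalized ATAC-seq read counts (points, 2 libraries each, with the mean as a line) in 6 populations for the 6 assigned regions called between ON-BC and OFF-BC, named by the nearest member and the distance from its start. In the 4 distal OFF-BC regions both cone types are high and rods near 0, at the *Irx5* start only OFF-BC is high (44.5 and 67.2), and in the last panel ON-BC and pan-BC are high.

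The reference sequences of the 5 distal regions called between ON-BC and OFF-BC are shown as a description. The share called was close to that over all tested regions. They are given on the plus strand of GRCm38, 5′ to 3′, 201 bases from start to end. Capitals mark matches to TAATCC or TAATTA on either strand, the letters bound by homeodomains of the Otx/Crx type and by many paired-type and LIM homeodomains.
Irx1, 157 kb upstream, chr13:72121099-72121299, higher in OFF-BC: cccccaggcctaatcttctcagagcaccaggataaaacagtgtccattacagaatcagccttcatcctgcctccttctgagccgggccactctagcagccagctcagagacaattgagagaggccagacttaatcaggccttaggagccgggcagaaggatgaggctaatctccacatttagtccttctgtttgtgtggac
Irx1, 317 kb upstream, chr13:72280413-72280613, higher in OFF-BC: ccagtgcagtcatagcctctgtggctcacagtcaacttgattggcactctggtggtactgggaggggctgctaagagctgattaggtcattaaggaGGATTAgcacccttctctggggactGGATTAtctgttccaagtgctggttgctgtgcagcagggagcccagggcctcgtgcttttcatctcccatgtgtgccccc
Irx2, 273 kb upstream, chr13:72355407-72355607, higher in OFF-BC: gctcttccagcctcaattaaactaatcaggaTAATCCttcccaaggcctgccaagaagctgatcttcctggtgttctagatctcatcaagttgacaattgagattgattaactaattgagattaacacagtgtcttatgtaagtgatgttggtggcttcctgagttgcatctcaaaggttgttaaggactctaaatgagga
Irx3, 274 kb upstream, chr8:92075074-92075274, higher in OFF-BC: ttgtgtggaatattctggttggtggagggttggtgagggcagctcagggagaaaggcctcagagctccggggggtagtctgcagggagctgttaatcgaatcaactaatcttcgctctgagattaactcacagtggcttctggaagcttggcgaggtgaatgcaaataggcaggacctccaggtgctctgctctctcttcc
Irx2, 163 kb upstream, chr13:72465902-72466102, higher in ON-BC: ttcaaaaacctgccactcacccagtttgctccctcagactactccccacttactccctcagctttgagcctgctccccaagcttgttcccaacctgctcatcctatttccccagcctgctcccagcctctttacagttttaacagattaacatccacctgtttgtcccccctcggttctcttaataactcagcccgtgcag

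TAATCC occurred in 2 of these 5 sequences, with 2 matches 317 kb upstream of *Irx1* and 1 match 273 kb upstream of *Irx2*. Over all 110715 regions 21.8% held it, and 21 of the 87 assigned regions (24.1%). TAATTA was found in none of the 5, in 5 of the 87 (5.75%) and in 5.22% of all regions. The paper's Q50 homeodomain motif also allows TAATTG, which was not searched for. TAATTG occurs, unmarked, in the sequence 273 kb upstream of *Irx2*. These TAATTA counts thus do not cover all Q50 sites. CANNTG, the E-box bound by bHLH factors, was found in each of the 5, in 61 of the 87 (70.1%) and in 68.9% of all regions. ACANNTGT, an Iroquois-type site that always contains CANNTG, was found in none of the 5, in 7 of the 87 (8.05%) and in 6.98% of all regions. A match is a description of letters in a window, not of binding.

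Peaks called in each library separately were placed by the same rule, using the summit. ON-BC had 54 and 55 peaks assigned to members, OFF-BC 49 and 41, pan-BC 51 and 75, blue cones 29 and 36, green cones 34 and 20, and rods 9 and 6. Rod peaks of *Irx1*, *Irx2* and *Irx4* numbered 0 in both libraries. The rod libraries had 40829 and 44540 peaks in all, beside 39700 and 52066 in blue cones. A peak in the *Irx5* promoter window was called in OFF-BC replicate 2 alone among these 12 libraries. The *Irx6* window held a peak in both pan-BC, OFF-BC and blue cone libraries, in ON-BC replicate 2 and in green cone replicate 2, and in neither rod library.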

How the data were processed

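RNA-seq libraries were made with the SMARTer kit, which does not record strand, and sequenced as single-end reads. Per the labels and the methods, reads were aligned to GRCm38/mm10 with STAR and counted with HTSeq, and ATAC-seq reads were aligned with Bowtie2, filtered with SAMtools and Picard, restricted to short fragments, and used for peak calling with MACS2 in each library. The deposited gene and region tables hold normalized signal, which the authors made by dividing read counts by 1 size factor per library. Whole reads were recovered from every value (230384 RNA-seq and 1212862 ATAC-seq values above 0, within 0.01 read). In the deposited peak lists, only the position and summit were used, and the score, the fold enrichment (ratio) and the -log10 p-value and q-value columns were not.

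All libraries of an assay entered 1 linear model of log2(normalized count + 1). Differences were tested with limma (3.58.1) against a log2 fold change of 1, with Benjamini-Hochberg adjustment over all tested features and calls at 0.05, after edgeR's filter on low counts (14024 genes, 108448 regions). The scripts were tested on simulated data. No label states whether replicates came from separate animals, so p-values measure the spread between these samples. Alternatives were edgeR (4.0.16), DESeq2 (1.42.0), TMM scaling, other pseudocounts, no filter, a test against no change, a replicate block and leaving out each library. Intervals and bounds cover counting error only.

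The members and gene lists were chosen with earlier results of these data known. Named were the members, called genes of the lists and of the neighbours within 500 kb, the 5 genes most correlated with *Irx6* and with *Irx5*, promoter regions, and up to 3 called regions with the largest change in each direction of each comparison. *Lrrtm1*, *Fto*, the uncalled list genes with values and the further regions called between ON-BC and OFF-BC were named after their values were seen. So were the region in the *Irx3* exon and the regions 1.57 kb and 1.88 kb upstream of *Irx5*. Sequences and gene positions came from RefSeq on GRCm38.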

Additional observations from a re-analysis of the deposited data

Results flagged for a closer look

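A pair of ATAC-seq libraries of green cones that were sorted through a further round had peak lists but were used in no comparison. Peaks assigned to Iroquois genes numbered 43 in replicate 3 and 19 in replicate 4, of 43221 and 29410 peaks in all, compared with 34 and 20 in the green cone libraries of a single sort and 9 and 6 in rods. They were singled out because this signal lies outside the compared data. Of these, 13 and 6 belonged to *Irx1*, *Irx2* and *Irx4*, for which rods had 0 in both libraries. An *Irx6* promoter peak was called in replicate 3.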

How the results depend on the processing

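The counts of Iroquois genes called were the same under every alternative run (2 between ON-BC and OFF-BC, 3 for pan-BC against rods and against blue cones, 1 for rods against blue cones). The 3 include *Irx3*, which passed the filter on low counts only through pan-BC, so its calls remain a description. Over 17 gene differences, 128 of 136 values under other settings stayed on their side of the threshold, 2 lost and 6 gained a call, and leaving out a library ended 5 of 102. Over 25 region differences, 3 of 200 values under other settings and 13 of 100 with a library left out lost a call. No direction reversed. Testing against no change gave 17 called regions between ON-BC and OFF-BC in place of 6, and 55 between pan-BC and blue cones in place of 29. Of all 108448 tested regions, that test called 26416 in place of 8010 and 66171 in place of 38966. Assigning regions to the nearest start of any RefSeq transcript, noncoding ones included, gave 34 for pan-BC against rods in place of 52 and 17 for pan-BC against blue cones, since fewer regions were then assigned to the family. With 1 library left out, called regions ranged from 4 to 5 between ON-BC and OFF-BC, from 44 to 49 between pan-BC and rods, and from 22 to 24 between pan-BC and blue cones. With 2 ATAC-seq libraries per population, the lone library left is assumed to vary like the others.

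*Irx5* in OFF-BC against pan-BC (adjusted p = 0.147) passed with a pseudocount of 4 (0.00741), edgeR (0.0129), DESeq2 (0.0319) and the test against no change (0.00394). *Irx5* in ON-BC against pan-BC did not pass with a pseudocount of 4 (0.08), *Irx3* in OFF-BC against pan-BC did not with DESeq2 (0.157), and *Irx3* in ON-BC against pan-BC passed without the filter (0.0223) and against no change (0.00239). The *Irx2* region 163 kb upstream did not pass with a pseudocount of 0.5 (0.0782). The cause was not tested. TMM scaling moved the median of all regions between ON-BC and OFF-BC from 0.15 to -0.07.

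ON-BC and OFF-BC libraries with the same number were from mice of equal age, but no label states a shared animal, litter or day, and their RNA-seq deviations correlated at -0.08, 0.22 and -0.07, so the numbers were not taken as a pairing. With the replicate number as a block, the counts of Iroquois genes stayed at 2, 3, 3 and 1, and 6, 51 and 30 regions were called in the same 3 comparisons.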
